A study of Mus musculus with 20 samples.

Results

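The splenic donor CD8+ T cells of mice given *Dnmt3a* knockout (KO) or wild-type (WT) T cells were compared across the whole expressed gene set on day 10 after allogeneic transplantation. The comparison used 8 of the 20 RNA-Seq libraries of the series, 4 KO CD8+ and 4 WT CD8+. Members were the 12383 of 17101 deposited genes whose mean normalized count over these 8 libraries was at least 10, a rule that did not use the difference between the genotypes. The other libraries held KO and WT CD4+ cells and KO cells positive for both CD4 and CD8.

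KO donors carried *Dnmt3a* alleles flanked by loxP sites and a Cre recombinase driven by the *Cd4* promoter, which is active while thymocytes carry both CD4 and CD8, so that mature CD8+ cells had also passed through Cre expression. WT donors had intact *Dnmt3a*. Donors were 6 to 12 and recipients 8 to 12 weeks old, the recipients were irradiated B6D2F1 mice, which differ from C57BL/6J (B6) donors in their major histocompatibility genes, and the donor T cells were recovered from the spleen by flow cytometric sorting. Whether a library stands for 1 recipient or a pool is not given in the sources used here, so that p-values measure the spread between these libraries. The deposited values count whole genes, so that the deleted part of *Dnmt3a* could not be separated from the rest of its transcript.

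DNMT3A is a de novo DNA methyltransferase, an enzyme that adds methyl groups to cytosines of CpG dinucleotides that carry none, whereas DNMT1 copies existing methylation to new strands at replication. In CD8+ T cells that respond to antigen, de novo methylation is known to silence genes of naive and memory cells as effector cells mature, and to fix part of the program of exhausted cells under persistent antigen. In graft-versus-host disease, donor CD8+ T cells meet such antigen on recipient tissues, home to gut, liver and skin, and kill through granzymes, perforin and death ligands.

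Library size differed little between the genotypes, with 39307777 to 45420708 reads on genes in KO and 42563528 to 46771383 in WT cells. WT libraries held reads for more genes (14465 to 14677) than KO libraries (13576 to 14077). The T cell markers were high in all 8 libraries, with summed normalized counts of 235831 to 299903 in KO and 254009 to 266313 in WT cells, so that the labelled cell type was present. Markers of other cells moved with genotype or library. The 11 neutrophil markers summed to 21.6 to 3059 in KO and 2034 to 4791 in WT cells, the 6 erythroid markers to 66.9 to 1772 and 1290 to 4270, and the 16 pancreatic acinar markers to 1347 to 9860 and 946 to 2518. The highest sums of neutrophil and acinar markers in KO cells were those of KO3. In bulk RNA, fewer cells of a type and less RNA per cell cannot be told apart, and the part of these cells in the results below was not tested.

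*Dnmt3a* (chromosome 12, bases 3801559 to 3914443, plus strand, GRCm38) had normalized counts of 2007, 1287, 1515 and 1664 in KO and 3549, 3542, 3756 and 3812 in WT cells, and every KO library was below every WT library (log2 fold change -1.20, SE 0.12, adjusted p = 0.000654). Its relative *Dnmt3b*, the other de novo methyltransferase of T cells, went the other way, with 1965, 1418, 1649 and 1886 in KO and 1106, 948, 1093 and 1034 in WT cells (log2 fold change 0.72, SE 0.12, adjusted p = 0.00371). The KO libraries did not overlap the WT libraries for either gene. Of 14 genes for DNA methylation enzymes and readers, 2 were higher and 2 lower in KO cells, where higher and lower mean an adjusted p of at most 0.05 in limma. The other higher gene was *Mbd2*, a reader of methylated CpG, with 17330.1, 18315, 12876 and 16026 in KO and 11154, 10906, 10975 and 11021 in WT cells (log2 fold change 0.54, SE 0.10, adjusted p = 0.00669), and the other lower gene was *Mbd4*, a glycosylase that repairs deaminated CpG (log2 fold change -0.66, adjusted p = 0.0279). The maintenance enzyme *Dnmt1* did not pass the test, at 12529, 27546, 26657 and 17701 in KO and 25522, 25985, 25798 and 24458 in WT cells (log2 fold change -0.34, adjusted p = 0.279). KO1 had the lowest *Dnmt1* count and KO2 the highest. The call was lost for *Mbd4* without KO4 or any 1 of the WT libraries (adjusted p up to 0.0843) or under quantile normalization or in the joint fit.

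Over all 12383 genes, 25.2% were called, 1566 higher (12.6%) and 1552 lower (12.5%) in KO cells, beside 4897 genes at an unadjusted p under 0.05. The counts of every gene list are to be read beside these shares. The rises were smaller than the falls. The median log2 fold change was 0.42 among genes called higher and -0.77 among genes called lower, and 157 genes rose and 581 fell by at least 1 log2 unit. The median over all genes was -0.04. Every KO library was above every WT library for 15.2% of genes and below for 15.5%. The split between rises and falls moved with the scaling. When each library was scaled to the 75th percentile of its genes with reads, 689 genes were called higher and 2252 lower, with a median of -0.15 over all genes. This alternative was chosen after the data were seen. Without KO3 4092 genes were called. Without WT2, WT3, WT5 or WT6 the number of called genes was 1753, 1712, 1711 and 1633. Calls of named genes that were lost when 1 library was left out or under another setting are given at the end of each paragraph, where the joint fit is a fit over all 20 libraries.

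The genes with the largest rises, chosen among called genes without overlap between the groups, were low in WT cells. *Cd4* (chromosome 6, bases 124864693 to 124888247, minus strand), the coreceptor of helper T cells, had normalized counts of 302, 336, 349 and 458 in KO and 12.2, 79.6, 9.88 and 28.7 in WT cells (log2 fold change 3.88, SE 0.57, adjusted p = 0.00263). WT3 was the highest WT library. The counts of *Cd4* were far below those of CD4+ cells in the same table, which ran from 44804 to 74386 in KO and from 64652 to 72567 in WT CD4+ libraries, and below the 8758 to 15351 of the KO cells sorted as positive for both coreceptors.

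*Scn2b*, a beta subunit of voltage-gated sodium channels, had 414, 289, 397 and 514 in KO and 16.6, 26.9, 45.8 and 36.1 in WT cells (log2 fold change 3.71, SE 0.33, adjusted p = 0.000479). *Dnajc6*, the clathrin-uncoating cofactor auxilin, had 238, 645, 508 and 489.6 in KO and 33.1, 46.1, 49.4 and 24.1 in WT cells (log2 fold change 3.55, SE 0.35, adjusted p = 0.000632). *Igsf23*, an immunoglobulin superfamily member, had 215, 164, 80.8 and 139 in KO and 2.62, 6.72, 27.9 and 10.2 in WT cells (log2 fold change 3.87, SE 0.61, adjusted p = 0.00347). The absence of overlap between KO and WT libraries was a condition of choice for these genes and is no further result. *Cd79b* (chromosome 11, bases 106311341 to 106314562, minus strand), a signalling chain of the B cell receptor, had 2245, 2004, 1413 and 1713 in KO and 245, 190, 211 and 147 in WT cells (log2 fold change 3.21, SE 0.19, adjusted p = 0.00013), and its KO libraries kept close together. The B cell markers *Ms4a1* and *Pax5* stayed at or near 0 in these libraries, below the minimum mean for the test, and *Cd79a*, the partner chain of *Cd79b*, had only 34.3, 35.0, 12.3 and 35.0 in KO and 14.8, 21.1, 9.88 and 11.1 in WT cells (log2 fold change 0.93, adjusted p = 0.185). *Cd79a* was called higher under quantile normalization or without KO3 (adjusted p down to 0.0379). Other large rises were those of *Tmem108* (3.47), *Myl10* (3.32), *Cabp1* (2.73), *Emilin1* (2.60), *G0s2* (2.52), *Pygm* (2.49), *Ston1* (2.45) and *Trnp1* (3.39), on the log2 fold change scale. *Emilin1* is an extracellular matrix glycoprotein, *G0s2* an inhibitor of triglyceride lipase and *Pygm* the muscle form of glycogen phosphorylase. *Pygm* was carried most by KO2, with 1048, 3351, 414 and 399.7 in KO and 138, 154, 165 and 164 in WT cells. Lost calls were those of *Ston1* without KO4, WT2, WT5 or WT6 (adjusted p up to 0.0791) and *Trnp1* without WT3 or WT6 (adjusted p up to 0.0583) or in the joint fit.

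**Figure D1:**
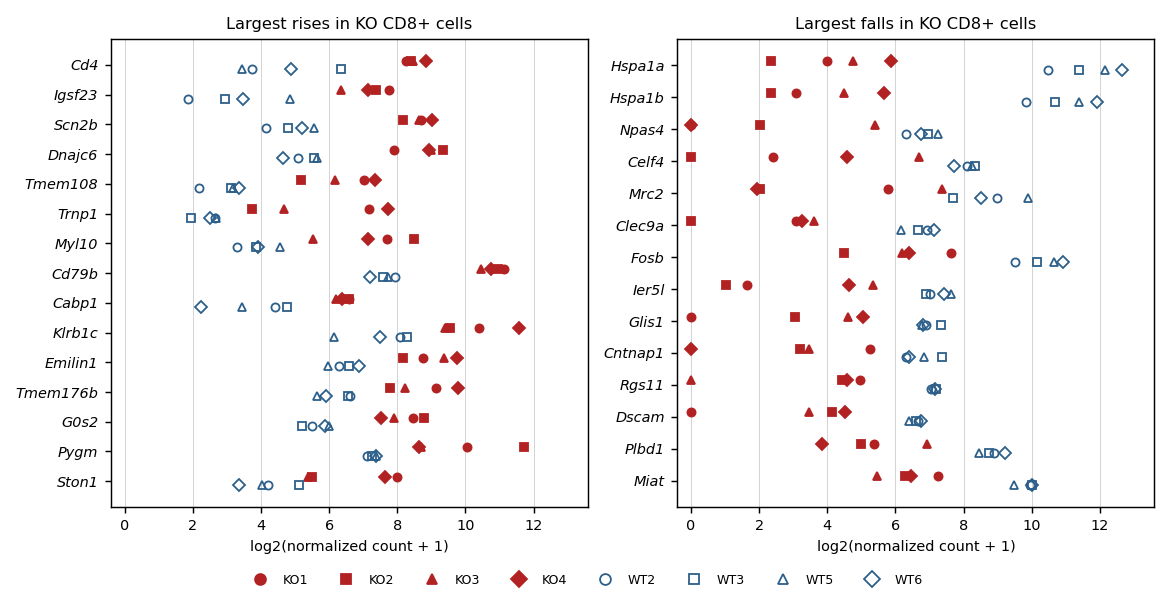
Log2(normalized count + 1) of genes with the largest rises and the largest falls in KO CD8+ cells, with 1 point per library and 4 libraries per genotype. Genes were chosen without overlap between the groups, with WT counts of *Cd4* at 9.88 to 79.6 on the side of the rises and KO counts of *Hspa1a* at 4.12 to 57.8 on the side of the falls.

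The falls reached further than the rises and were led by a pair of heat-inducible chaperones. *Hspa1a* and *Hspa1b* encode nearly identical HSP70 proteins from neighbouring genes on chromosome 17 and can share reads, so that their counts are not independent. Their promoters, the 250 bases before the transcript start in RefSeq on GRCm38.p6, are shown because both carry the same heat shock element (capitals), the site read by heat shock factor 1. They were identical at 247 of 250 bases. The window of *Hspa1a* is chr17:34972157-34972406, minus strand, and that of *Hspa1b* chr17:34959239-34959488, minus strand.
Hspa1a: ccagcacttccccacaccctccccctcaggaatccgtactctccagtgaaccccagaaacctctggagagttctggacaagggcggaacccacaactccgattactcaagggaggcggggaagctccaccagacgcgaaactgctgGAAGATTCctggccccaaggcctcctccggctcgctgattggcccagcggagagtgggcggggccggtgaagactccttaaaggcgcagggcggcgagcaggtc
Hspa1b: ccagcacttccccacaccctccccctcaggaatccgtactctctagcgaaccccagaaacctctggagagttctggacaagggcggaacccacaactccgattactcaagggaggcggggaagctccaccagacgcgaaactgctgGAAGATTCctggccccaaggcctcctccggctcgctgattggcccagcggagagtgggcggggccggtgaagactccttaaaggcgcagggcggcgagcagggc

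*Hspa1a* had normalized counts of 15, 4.12, 25.8 and 57.8 in KO and 1435, 2664, 4529 and 6483 in WT cells (log2 fold change -7.42, SE 0.71, adjusted p = 0.000593). *Hspa1b* had 7.50, 4.12, 21.3 and 49.2 in KO and 908, 1627, 2659 and 3854 in WT cells (log2 fold change -7.05, SE 0.70, adjusted p = 0.000632). WT libraries differed among themselves, but the lowest WT library was far above the highest KO library for both genes. The largest falls, too, were chosen without overlap between the groups. In the CD4+ libraries *Hspa1a* ran from 13.2 to 82.1 in KO and from 2221 to 10881 in WT cells. Over all genes, 12.6% were higher and 12.5% lower. Of 28 heat shock chaperone and regulator genes, 0 were higher and 5 lower (median log2 fold change -0.31, against -0.04 over all genes). The number lower was 13 without KO3, 12 under 75th-percentile scaling of genes with reads, 8 under quantile normalization and 3 without KO4, WT2, WT5 or WT6. The other lower genes were *Hsph1* (-0.88), *Hsf1* (-0.62) and *Chordc1* (-0.49), the second of which encodes heat shock factor 1 itself. The constitutive HSP70 *Hspa8* had 107752, 121614, 135498 and 135281 in KO and 120124, 116874, 124214 and 127640 in WT cells (log2 fold change 0.03, adjusted p = 0.86), with KO and WT libraries overlapping. The heat shock element was searched as GAANNTTC or TTCNNGAA, each of which reads the same on both strands. It was present in 10.4% of 12401 promoter windows of tested genes. By gene, it was present for 1200 of 9789 tested genes with a window. Among chaperone genes with a window, these were 3 of the 4 lower genes and 7 of the 18 others. The 3 include *Hspa1a* and *Hspa1b*, whose windows are nearly the same sequence. A match is a description of the letters only. Significance was not kept by *Hsph1* without KO4, WT2, WT5 or WT6 (adjusted p up to 0.0637) and *Chordc1* without KO1, KO2, KO4 or any 1 of the WT libraries (adjusted p up to 0.106) or in 4 of the other alternatives.

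Other large falls came from varied families. *Celf4*, an RNA-binding protein, had 4.28, 0, 103 and 22.7 in KO and 275, 320.5, 300.1 and 209 in WT cells (log2 fold change -4.68, SE 1.17, adjusted p = 0.019). *Clec9a*, a receptor of cross-presenting dendritic cells, had 7.50, 0, 11.2 and 8.52 in KO and 120.4, 101, 71.0 and 140 in WT cells (log2 fold change -4.24, SE 0.76, adjusted p = 0.00539). *Miat*, a long non-coding RNA, had 152, 77.2, 42.6 and 86.2 in KO and 991, 1037, 718 and 1027 in WT cells (log2 fold change -3.51, SE 0.34, adjusted p = 0.000593). No KO library reached the WT range for these 3 genes, which was a condition of their choice. *Plbd1*, a phospholipase-like protein, had 40.7, 30.9, 121 and 13.3 in KO and 469, 429, 347 and 590.5 in WT cells (log2 fold change -3.53, SE 0.55, adjusted p = 0.0033). *Mrc2*, a collagen uptake receptor, fell with a log2 fold change of -4.50. Further large falls included *Ier5l* (-4.09), *Glis1* (-3.78), *Cntnap1* (-3.74), *Rgs11* (-3.64) and *Dscam* (-3.57). Dendritic cell markers moved with *Clec9a*: of 7 tested, 0 were higher and 4 lower, and *Flt3* had 0, 0, 38.1 and 7.58 in KO and 58.4, 61.4, 49.4 and 94.5 in WT cells and *Xcr1*, a chemokine receptor of the same cells, 215, 220.3, 239 and 147 in KO and 611, 593, 680.3 and 599.7 in WT cells (log2 fold change -1.61, adjusted p = 0.000713). The part of dendritic cells in the fall of *Clec9a* was not tested. Alternatives ended the call of *Celf4* without WT2, WT3 or WT5 (adjusted p up to 0.055) or by DESeq2 and *Mrc2* without KO4, WT2, WT5 or WT6 (adjusted p up to 0.0648). Less firm were the calls of *Glis1* without any 1 of the WT libraries (adjusted p up to 0.0605) and *Cntnap1* without WT3, WT5 or WT6 (adjusted p up to 0.0616). No longer past the threshold were *Rgs11* without any 1 of the WT libraries (adjusted p up to 0.0637) and *Dscam* without WT2, WT3 or WT6 (adjusted p up to 0.0541). The call was lost for *Flt3* without KO2 or any 1 of the WT libraries (adjusted p up to 0.0838) or in 3 of the other alternatives.

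Immediate early genes, which T cells switch on within minutes of receptor or stress signals, fell together. Of 33 tested, 0 were higher and 20 lower (median -0.91), against 12.6% and 12.5% of all genes. Under quantile normalization 20 were lower, and under 75th-percentile scaling of genes with reads 22. The count of lower genes came to 13 without WT6. The AP-1 subunit *Fos* had 448, 144, 307 and 303 in KO and 1594, 1929, 2619 and 3138 in WT cells (log2 fold change -3.00, SE 0.33, adjusted p = 0.000886). Its relative *Fosb* had 197, 21.6, 71.8 and 83.3 in KO and 722, 1129, 1604 and 1931 in WT cells (log2 fold change -4.12, SE 0.58, adjusted p = 0.00235), and *Jun* had 705, 110.1, 499 and 854 in KO and 2450.4, 2890.1, 3807 and 4730.1 in WT cells (log2 fold change -2.97, SE 0.56, adjusted p = 0.00649). KO2 was the lowest library for all 3 genes. No KO library reached the WT range, which was a condition of choice for *Fosb*. *Ppp1r15a*, which reverses the translation block of stressed cells, had 1034, 563, 1074 and 886 in KO and 2524, 3495, 5094 and 5083 in WT cells (log2 fold change -2.17, SE 0.26, adjusted p = 0.00143). *Dusp1*, a phosphatase of MAP kinases, had 543, 408, 544 and 389 in KO and 1151, 1649, 2563 and 2416 in WT cells (log2 fold change -1.99, SE 0.25, adjusted p = 0.00147). *Nfkbiz*, a nuclear cofactor of NF-κB, had 2962, 2385, 2595 and 2696 in KO and 4323, 5252, 5132 and 5339 in WT cells (log2 fold change -0.91, SE 0.09, adjusted p = 0.000654). All 3 were below all WT libraries in each of the KO libraries. The list also held *Npas4* (-4.95), *Klf4* (-1.51), *Fosl2* (-0.98), *Tnfaip3* (-0.90) and *Zfp36* (-0.77), all lower. The early growth response factors did not pass the test: *Egr1* had 763, 516, 2137 and 1737 in KO and 1756, 1973, 2314 and 2255 in WT cells (log2 fold change -0.91, adjusted p = 0.119) and *Egr2* had 165, 84.4, 1433 and 1219.8 in KO and 799.9, 776, 709 and 835 in WT cells (-0.97, adjusted p = 0.399). KO1 and KO2 were below the WT range for *Egr2*, and KO3 and KO4 above it. *Egr1* was called lower without KO3 (adjusted p down to 0.0269). Lost calls were those of *Npas4* by edgeR or by DESeq2 (adjusted p up to 0.0881).

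Transcripts known to stay in the nucleus or to keep introns were lower as well. Of 21 tested, 0 were higher and 17 lower (median -0.84), and 15 to 17 were lower under the other scalings and count tests. *Neat1*, the long non-coding RNA that builds paraspeckles, had 4634, 3577, 2049 and 2254 in KO and 13261, 11466, 10890.5 and 12844 in WT cells (log2 fold change -2.03, SE 0.23, adjusted p = 0.00107). *Rsrp1*, an arginine and serine rich protein gene, had 5180.3, 3387, 2922 and 2543 in KO and 10354, 10728, 10743 and 11827 in WT cells (log2 fold change -1.69, SE 0.19, adjusted p = 0.000885). *Clk4*, a kinase of splicing factors, had 1786, 1123, 1320.1 and 1077 in KO and 2783, 2976, 3053 and 3168 in WT cells (log2 fold change -1.20, SE 0.15, adjusted p = 0.00147). The groups did not overlap for any of them, with KO1 the highest KO library for *Neat1* and *Rsrp1*. *Malat1* had 22537, 8271, 7503 and 9258 in KO and 21488, 31241, 19753 and 23429.8 in WT cells (log2 fold change -1.15, adjusted p = 0.0271), and here KO1 lay inside the WT range. The other lower members included *Pnisr* (-1.31), *Snhg1* (-1.24), *Ccnl1* (-1.15), *Ccnl2* (-1.16), *Clk1* (-1.11), *Paxbp1* (-0.84), *Srsf7* (-0.76) and *Rbm39* (-0.59). By annotated gene class, small nucleolar RNAs (snoRNAs), which guide ribosomal RNA modification and are cut from the introns of host genes, showed the largest share of lower genes, 24 of 49 (49.0%) with 0 higher and a median of -1.82. Protein-coding genes had 1538 higher and 1439 lower of 11682, and long non-coding RNAs 19 higher and 53 lower of 431. These classes differ in level, with median mean normalized counts of 25.5 for snoRNAs, 59.4 for long non-coding RNAs and 1259 for protein-coding genes. Among all genes with a mean of 10 to 50, 1.04% were higher and 8.93% lower, and at 50 to 200, 3.59% and 15.6%. The classes were not compared at equal level. Of the 24 lower snoRNAs, 23 lay inside a tested gene on the same strand, in 18 hosts. Their hosts were higher for 8, lower for 7 and not called for 8. The median log2 fold change was -2.20 for these snoRNAs and 0.22 for their hosts. The libraries were made from poly(A) RNA, which mature snoRNAs lack, and reads of the host's unspliced transcript can be counted for an intronic snoRNA. The part of either in the difference was not tested. Significance was not kept by *Malat1* without KO2, KO4 or any 1 of the WT libraries (adjusted p up to 0.0799) or in 3 of the other alternatives.

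**Figure D2:**
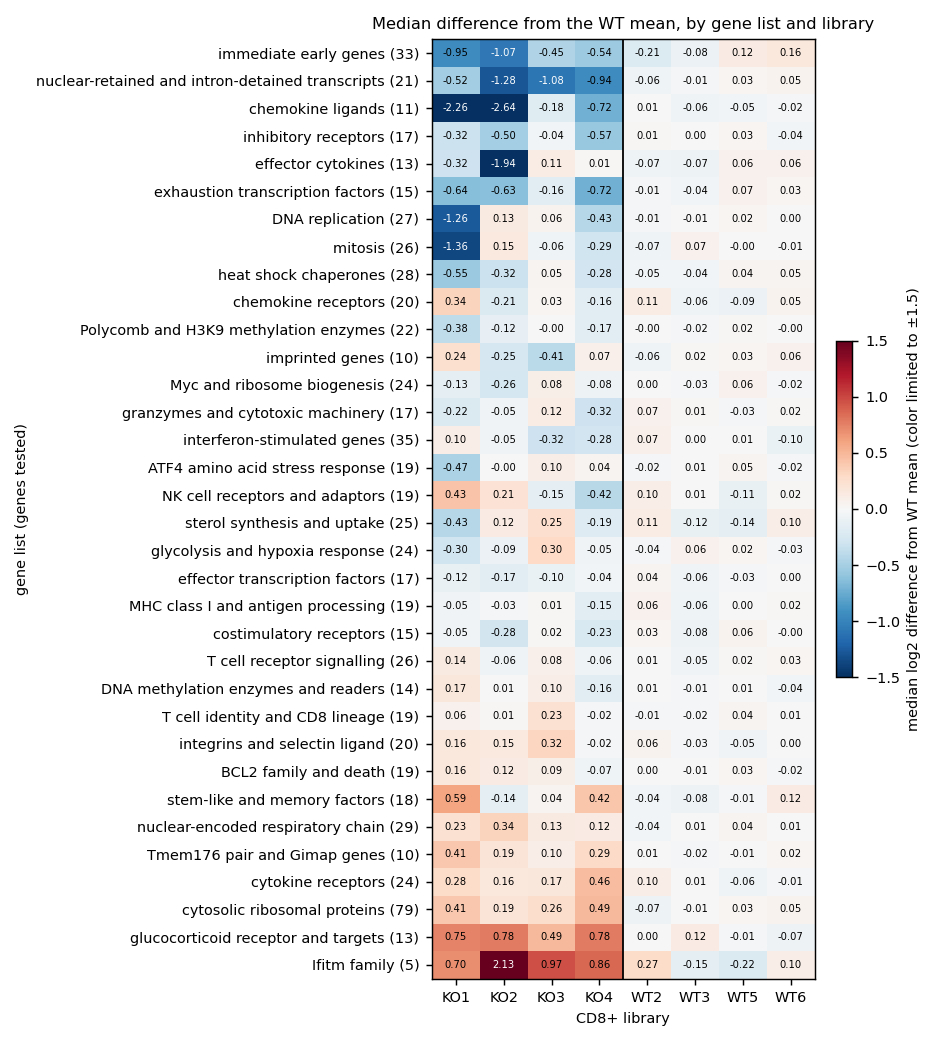
Median log2 difference from the WT mean over the tested members of each gene list, as a color and a printed number for each of the 8 libraries (blue lower, red higher). Immediate early and nuclear-retained transcripts were below the WT libraries in all 4 KO libraries, whereas mitosis and DNA replication were far down only in KO1, at -1.36 and -1.26.

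The most abundant of the higher genes belonged to translation and the cytoskeleton. *Eef2*, the elongation factor that moves the ribosome along the message, had normalized counts of 293207, 280867, 268817 and 337375 in KO and 197002, 191133, 207332 and 193415 in WT cells (log2 fold change 0.58, SE 0.10, adjusted p = 0.0058). *Eef1a1*, which brings aminoacyl-tRNA to the ribosome, had 633044, 561723, 588951 and 695660 in KO and 447593, 437196, 449547 and 446405 in WT cells (log2 fold change 0.47, SE 0.12, adjusted p = 0.0202). *Vim*, the intermediate filament vimentin, had 103848, 150133, 85314 and 105327 in KO and 66884, 71972, 66660.3 and 72553 in WT cells (log2 fold change 0.65, SE 0.15, adjusted p = 0.0151). All KO libraries were above all WT libraries, which was a condition of choice for these abundant genes. Of 79 cytosolic ribosomal protein genes, 60 were higher and 1 lower (median 0.34). This count turned on the scaling, with 4 higher under quantile normalization (median 0.14), 12 under 75th-percentile scaling of genes with reads (0.23), 62 by edgeR, 68 by DESeq2, 4 in the joint fit and 26, 29 and 37 without WT2, WT3 or WT5. *Rplp0* had 167304, 158039, 157592 and 176358 in KO and 116109, 123745, 126304 and 123202 in WT cells (log2 fold change 0.43, SE 0.08, adjusted p = 0.00748). The lower member was *Rpl39l* (-2.91), a paralog known from the testis. Ribosomal protein genes have many processed copies in the genome, so that their reads can be split. Of 29 nuclear genes of the respiratory chain, 11 were higher and 0 lower (median 0.19), among them *Ndufv1* (0.49) and *Atp5a1* (0.41), with 7 higher under quantile normalization and 3 higher and 1 lower under 75th-percentile scaling of genes with reads, and 4 higher without WT2 or WT6 and 5 in the joint fit. Among abundant lower genes were *Set*, a histone chaperone and phosphatase inhibitor, with 11009.5, 14553, 18340.3 and 13631 in KO and 26825, 27418, 28367 and 28432 in WT cells (log2 fold change -0.97, SE 0.13, adjusted p = 0.00209), *Sh2d2a*, a T cell adaptor (-0.48), *Ddx5*, an RNA helicase (-0.41), and *Srrm2*, a splicing cofactor (-0.53). Alternatives ended the call of *Eef2* under quantile normalization (adjusted p up to 0.271) and *Eef1a1* without any 1 of the WT libraries (adjusted p up to 0.0671) or in the joint fit or under 75th-percentile scaling of genes with reads. The call of *Eef1a1* was also lost under quantile normalization, with a log2 fold change of 0.00. Less firm were the calls of *Vim* under quantile normalization (adjusted p up to 0.0635) and *Rplp0* under quantile normalization or in the joint fit (adjusted p up to 0.533). No longer past the threshold were *Rpl39l* without any 1 of the WT libraries (adjusted p up to 0.0783) and *Srrm2* in the joint fit (adjusted p up to 0.063).

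The share of called genes followed their level. From genes with a mean normalized count of 10 to 50 up to those of at least 5000, the share called higher rose from 1.04% over 3.59%, 6.23% and 16.6% to 29.0%. The share called lower was 8.93% in the lowest class, 15.6%, 16.8% and 12.4% in the middle ones and 7.96% in the highest. CpG content of the promoter region, taken as observed over expected CpG in the 500 bases on each side of the start, was compared because DNMT3A acts on CpG. Genes with a value under 0.4 were higher in 8.57% and lower in 14.6%, and genes with a value of at least 0.8 were higher in 15.7% and lower in 11.0%. The shares were also taken within 1 class of level. Among genes with a mean of 1000 to 5000 the share called higher was 18.2%, 16.9%, 16.3% and 16.7% from the lowest CpG class to the highest, and the share called lower 15.1%, 14.1%, 12.0% and 11.8%.

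**Figure D3:**
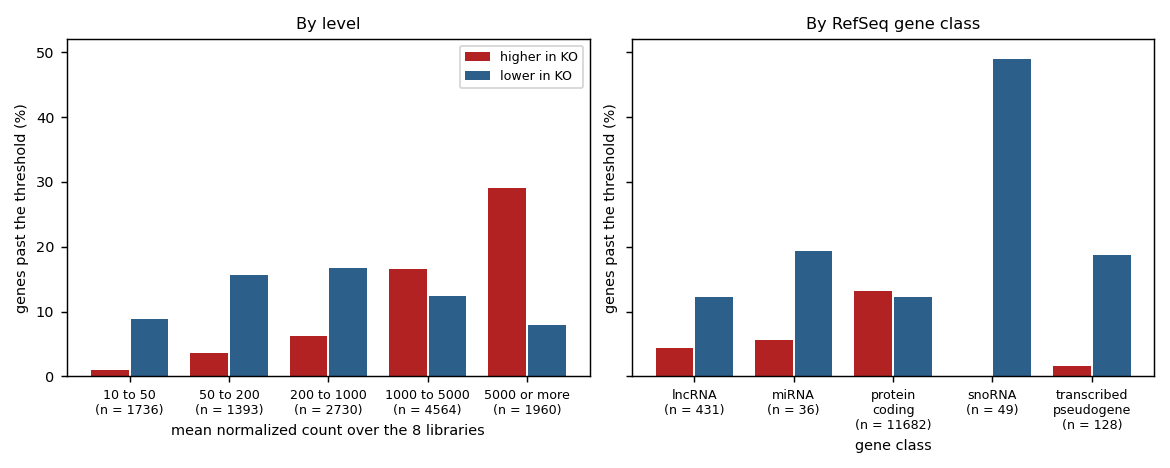
Percent of tested genes called higher or lower in KO CD8+ cells, by class of mean normalized count (left) and by RefSeq gene class (right), with the number of genes under each class. The share called higher goes from 1.04% in the lowest to 29.0% in the highest class of level, and 49.0% of snoRNAs were called lower. Gene classes differ in level, with a median mean normalized count of 25.5 for snoRNAs and 1259 for protein-coding genes.

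Genes of T cell identity and lineage, a list that also holds *Cd4*, changed in both directions. Of 19 tested, 6 were higher, the rise of *Cd4* given above included, and 2 lower. The sign of the median of this list (0.07) turned to -0.04 under quantile normalization. Genes called higher numbered 3 without WT5 or WT6. Those called lower were 5 without KO3. *Cd6*, an adhesion receptor of T cells, had 22001, 14681, 21657 and 22762 in KO and 9900.2, 11384, 9237 and 8353 in WT cells (log2 fold change 1.05, SE 0.15, adjusted p = 0.0024). *Satb1*, a chromatin organizer of thymocytes, had 11561, 7161, 13946 and 17941 in KO and 6507, 6564, 5939 and 6341 in WT cells (log2 fold change 0.92, SE 0.23, adjusted p = 0.0186). *Cd3e*, a chain of the T cell receptor complex, had 23132, 20612, 23917 and 18334 in KO and 27380.3, 27410.3, 29178 and 28266 in WT cells (log2 fold change -0.39, SE 0.09, adjusted p = 0.0133). The groups did not overlap, although KO2 came near the WT range for *Satb1*. For *Cd3e*, among the most abundant lower genes, this was a condition of choice. Of the CD8 chains, *Cd8b1* had 46313, 46606, 44901 and 35472 in KO and 32976, 31172, 34382 and 34031 in WT cells (log2 fold change 0.38, adjusted p = 0.0208), and *Cd8a* had 58009, 45783, 68740.3 and 49351 in KO and 62857, 63084, 68732 and 62768 in WT cells (-0.23, adjusted p = 0.191). *Cd8a* was called lower under quantile normalization or without KO3 (adjusted p down to 0.0272). The difference between the changes of both chains was not tested. Of 26 genes of T cell receptor signalling, 5 were higher and 1 lower, against 12.6% and 12.5% of all genes. The number lower was 4 under 75th-percentile scaling of genes with reads and 3 under quantile normalization or without KO1. The higher genes named here, *Pag1* (a membrane anchor for the kinase CSK, 0.86), *Pik3r1* (a regulatory subunit of PI3 kinase, 0.73) and *Prkcq* (protein kinase C theta, 0.68), include members that restrain and members that carry the signal. The lower gene was *Cblb*, a ubiquitin ligase that restrains activation, with 10016, 10695, 13122 and 9892 in KO and 16319, 15944, 15128 and 14080 in WT cells (log2 fold change -0.50, SE 0.10, adjusted p = 0.00757). The call was lost for *Satb1* without WT5 or WT6 (adjusted p up to 0.0552) and *Cd8b1* without any 1 of the WT libraries (adjusted p up to 0.0677) or in 3 of the other alternatives.

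More cytokine receptor and memory-associated genes were higher than lower. Of 24 cytokine receptor genes, 9 were higher and 2 lower (median 0.29). The count of higher genes came to 5 in the joint fit or without WT5 or WT6 and 4 without KO4 or WT3. Of 18 stem-like and memory genes, 5 were higher and 3 lower (median 0.18), against 12.6% and 12.5% of all genes. The memory median was 0.07 without KO1 and 0.08 without KO4. By library, the median difference of these genes from the WT mean was 0.586 in KO1, -0.136 in KO2, 0.036 in KO3 and 0.42 in KO4. Genes called higher numbered 3 in the joint fit or without KO4, WT2, WT3 or WT6. Those called lower were 1 without WT5 or WT6 and 0 in the joint fit. Promoters of *Scn2b*, from the largest rises above, and of 3 higher genes of these and the following groups are shown, with every CpG in capitals, because they hold few CpGs in the 250 bases before an annotated start (GRCm38.p6, RefSeq). The start used for *Il7r* lies inside the outer bounds of that gene. They are those of *Il7r* (chr15:9529877-9530126, minus strand), *Scn2b* (chr9:45117626-45117875, plus strand), *Ifitm3* (chr7:141010745-141010994, minus strand) and *Gzma* (chr13:113100982-113101231, minus strand), with 1, 1, 3 and 3 CpGs.
Il7r: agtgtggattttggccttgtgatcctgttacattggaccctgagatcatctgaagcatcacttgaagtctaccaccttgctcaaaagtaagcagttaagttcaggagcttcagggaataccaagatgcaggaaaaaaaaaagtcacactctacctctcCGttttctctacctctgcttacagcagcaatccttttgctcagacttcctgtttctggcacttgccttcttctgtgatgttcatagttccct
Scn2b: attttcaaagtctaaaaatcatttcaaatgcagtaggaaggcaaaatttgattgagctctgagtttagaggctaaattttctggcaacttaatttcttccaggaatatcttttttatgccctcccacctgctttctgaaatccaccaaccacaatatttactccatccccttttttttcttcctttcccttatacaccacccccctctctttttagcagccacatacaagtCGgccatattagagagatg
Ifitm3: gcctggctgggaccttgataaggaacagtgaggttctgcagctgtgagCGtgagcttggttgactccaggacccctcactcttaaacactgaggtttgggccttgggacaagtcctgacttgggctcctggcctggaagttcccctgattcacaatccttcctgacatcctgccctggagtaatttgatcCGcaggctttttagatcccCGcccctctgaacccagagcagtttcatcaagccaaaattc
Gzma: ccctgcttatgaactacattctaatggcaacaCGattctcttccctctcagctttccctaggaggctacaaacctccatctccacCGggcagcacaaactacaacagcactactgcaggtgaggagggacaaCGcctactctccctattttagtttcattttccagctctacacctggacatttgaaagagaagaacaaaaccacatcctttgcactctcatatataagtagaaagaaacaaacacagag

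*Il7r*, the receptor chain through which interleukin 7 keeps naive and memory T cells alive, had 10669, 3263, 2701 and 7920.4 in KO and 1879, 1504, 1605 and 1668 in WT cells (log2 fold change 1.65, SE 0.39, adjusted p = 0.0151). KO1 and KO4 were the highest libraries. *Il4ra*, the interleukin 4 receptor, had 3785, 2564, 3518 and 4621 in KO and 2050, 2028, 1982 and 1979 in WT cells (log2 fold change 0.82, SE 0.15, adjusted p = 0.00614), and *Il17ra* had 12054, 11372, 7914 and 9472 in KO and 6588, 5989, 5903 and 6427 in WT cells (log2 fold change 0.69, SE 0.12, adjusted p = 0.0053). Receptors of transforming growth factor beta were among the higher genes, with *Tgfbr2* at 11752, 9550.5, 8791 and 11842 in KO and 7836, 6819, 7150.4 and 7116 in WT cells (log2 fold change 0.53, SE 0.10, adjusted p = 0.00803) and *Tgfbr3* at 1.98 on the log2 scale. The lower receptors were *Il15ra* (-0.67) and *Il27ra* (-0.76). Among memory genes, *Lef1*, a partner of the Wnt pathway kept by naive and memory cells, had 6634, 5613, 3256 and 6970.5 in KO and 2229.7, 2530.3, 2283 and 2608 in WT cells (log2 fold change 1.16, SE 0.21, adjusted p = 0.0057), and *S1pr1*, the receptor that lets T cells leave lymphoid tissue, had 15912, 15055, 6301 and 10338 in KO and 5626, 5101, 4571 and 5665 in WT cells (log2 fold change 1.10, SE 0.26, adjusted p = 0.0147). *Bcl2*, a guardian against cell death, had 20656, 13078, 3854 and 9947 in KO and 4115, 3343, 3939.6 and 3725 in WT cells (log2 fold change 1.42, adjusted p = 0.0329), with KO3 inside the WT range. Lower were *Id3* (-1.44), an inhibitor of E proteins, and *Eomes*, a T-box factor of memory and exhausted cells, with 2001, 2193, 1279.7 and 1603 in KO and 3567, 3519, 4073 and 4824 in WT cells (log2 fold change -1.19, SE 0.17, adjusted p = 0.00248). *Ccr7*, a homing receptor of naive cells, did not pass the test, with 457, 118, 214 and 725 in KO and 258, 141, 142 and 195 in WT cells (log2 fold change 0.76, adjusted p = 0.288). KO1 and KO4 were above the WT libraries, KO3 among them and KO2 below. Lost calls were those of *Tgfbr3* without KO4 or WT3 (adjusted p up to 0.0519) or in the joint fit and *Il27ra* without WT2, WT5 or WT6 (adjusted p up to 0.0578). Significance was not kept by *Bcl2* without KO2, KO4 or any 1 of the WT libraries (adjusted p up to 0.0852) or without the variance trend or in the joint fit and *Id3* without WT5 or WT6 (adjusted p up to 0.0578) or in the joint fit. Alternatives ended the call of *Eomes* in the joint fit (adjusted p up to 0.0828).

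Trafficking receptors changed in both directions. Of 20 receptors for chemokines and related attractants, 5 were higher and 4 lower, against 12.6% and 12.5% of all genes. The number lower was 2 without the variance trend or without any 1 of the WT libraries. *P2ry14*, a receptor for UDP sugars, had 412, 586, 349.9 and 609.9 in KO and 147, 225, 128 and 78.8 in WT cells (log2 fold change 1.81, SE 0.32, adjusted p = 0.00496). *Cxcr4*, the bone marrow homing receptor, had 2473, 3605, 2388 and 3872 in KO and 1389, 1907, 1423 and 1253 in WT cells (log2 fold change 1.03, SE 0.19, adjusted p = 0.00563), and *S1pr4*, a relative of *S1pr1*, had 20340, 20458, 11578 and 14074 in KO and 9345, 9022, 8679 and 10199 in WT cells (log2 fold change 0.80, SE 0.17, adjusted p = 0.0113). The groups stood apart for all 3. Among the lower receptors, *Ccr6* had 53.5, 4.12, 40.4 and 49.2 in KO and 85.5, 176, 210.3 and 169.6 in WT cells (log2 fold change -2.47, SE 0.72, adjusted p = 0.0333). The gut-homing receptor *Ccr9* did not pass the test, at 818, 256, 861 and 3178 in KO and 297, 218, 321 and 223 in WT cells (log2 fold change 1.74, adjusted p = 0.0624), with KO2 inside the WT range and KO4 far above it. *Ccr9* was called higher under quantile normalization, by edgeR, by DESeq2 or without KO2 (adjusted p down to 0.00679). Of 20 adhesion genes, 6 were higher and 2 lower. The count of lower genes came to 4 under quantile normalization or under 75th-percentile scaling of genes with reads. *Itgb7*, the integrin chain that pairs with alpha 4 for entry to the gut, had 56852, 68527, 52417 and 50296 in KO and 36507, 35326, 34896 and 38093 in WT cells (log2 fold change 0.65, SE 0.10, adjusted p = 0.0033). *Selplg*, the selectin ligand PSGL-1, had 59753, 61452, 47587 and 51806 in KO and 39818, 36251, 37132 and 40876 in WT cells (log2 fold change 0.51, SE 0.10, adjusted p = 0.00647), and *Itga2* (1.06), *Itga6* (0.77) and *Cd44* (0.36) were also higher. *Gcnt1*, a glycosyltransferase that builds selectin ligands on PSGL-1, had 681, 1247, 1515 and 675 in KO and 2299.5, 2029, 2339 and 1784 in WT cells (log2 fold change -1.12, SE 0.26, adjusted p = 0.0137). Ligand and enzyme moved in opposite directions in the same libraries. Less firm were the calls of *Ccr6* without any 1 of the WT libraries (adjusted p up to 0.0911) or without the variance trend.

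Inhibitory receptors, the surface brakes of chronically stimulated T cells, were called no more often than all genes, of which 25.2% were called. Of 17 tested over all 8 libraries, 1 was higher and 3 were lower. Called or not, 4 had a positive and 13 a negative log2 fold change (median -0.61, against -0.04 over all genes). Genes called lower numbered 7 without KO3, 5 under 75th-percentile scaling of genes with reads and 1 without the variance trend, by edgeR or without any 1 of the WT libraries. *Cd38*, an ectoenzyme of activated cells, had 1505, 1310.4, 2469.8 and 1546 in KO and 3387, 3060, 3262 and 3115 in WT cells (log2 fold change -0.95, SE 0.17, adjusted p = 0.00543). *Pdcd1*, which encodes PD-1, had 9156, 16120, 25494 and 14908 in KO and 25663, 27231, 27745 and 24223 in WT cells (log2 fold change -0.77, SE 0.25, adjusted p = 0.0482). KO3 lay inside the WT range for *Pdcd1* and KO1 was lowest. *Lag3* had 9939.8, 10019.9, 29620.2 and 16503 in KO and 29242, 24548, 30348 and 24306 in WT cells (log2 fold change -0.86, adjusted p = 0.067), and *Havcr2*, which encodes TIM-3, 4539, 8899, 12693 and 8788 in KO and 13308, 13010.4, 11539 and 12139 in WT cells (-0.61, adjusted p = 0.106). KO3 was again the highest KO library. *Lag3* was called lower under quantile normalization, under 75th-percentile scaling of genes with reads or without KO3 (adjusted p down to 0.00229). *Havcr2* was called lower without KO3 (adjusted p down to 0.0206). The higher receptor was *4632428N05Rik*, the symbol used here for the gene of VISTA, with 16362, 12941, 12399 and 12642 in KO and 10506, 9467, 9691 and 10563 in WT cells (log2 fold change 0.43, SE 0.10, adjusted p = 0.0125). Of 15 transcription factors of exhausted cells, 2 were higher and 6 lower (median -0.49). Those called higher were 0 in the joint fit. *Tox*, a driver of the exhausted state, had 8284, 6156, 8473 and 4684 in KO and 12648, 11883, 16124 and 12046 in WT cells (log2 fold change -0.96, SE 0.19, adjusted p = 0.00724). *Nr4a1*, an orphan nuclear receptor induced by receptor signals, had 439, 598, 1228 and 761 in KO and 1595, 1675, 2110 and 2263 in WT cells (log2 fold change -1.42, SE 0.28, adjusted p = 0.00726), and *Nr4a2* (-2.29) and *Nr4a3* (-1.52) were also lower. The NFAT genes split, with *Nfat5*, which answers osmotic stress, lower at 2403, 1923, 2167 and 1728 in KO and 4128, 4939, 3542 and 4172 in WT cells (log2 fold change -1.03, SE 0.13, adjusted p = 0.00143) and the calcium-regulated *Nfatc3* (0.46) and *Nfatc2* (0.32) higher. Of 17 effector transcription factors, 0 were higher and 4 lower, among them *Gfi1*, a transcriptional repressor, with 1500.1, 1309, 1974 and 2058 in KO and 3015, 2978, 2619 and 2865 in WT cells (log2 fold change -0.77, SE 0.14, adjusted p = 0.00619), and *Bhlhe40* (-0.39). The number lower was 2 in the joint fit or without KO2, KO4, WT2, WT3 or WT6. *Tbx21*, which encodes T-bet, had 5272, 10110.5, 10342 and 8512 in KO and 11323, 10199, 10110.5 and 11059 in WT cells (log2 fold change -0.37, adjusted p = 0.18), KO1 being far below the rest. Of 15 costimulatory receptors, 1 was higher, *Cd44*, and 3 were lower, against 12.6% and 12.5% of all genes. Among the lower was *Cd226*, an activating receptor, at 6279, 3698, 7687 and 5682 in KO and 10856, 9261, 9898 and 10348 in WT cells (log2 fold change -0.84, SE 0.19, adjusted p = 0.0127). The count of lower genes came to 1 without KO4, WT3 or WT5. No longer past the threshold were *Pdcd1* without KO2, KO4 or any 1 of the WT libraries (adjusted p up to 0.112) or in 4 of the other alternatives and *4632428N05Rik* under 75th-percentile scaling of genes with reads (adjusted p up to 0.0524). The call was lost for *Nr4a2* without WT5 (adjusted p up to 0.0501) and *Nr4a3* without WT6 (adjusted p up to 0.0508). Lost calls were those of *Nfatc3* in the joint fit (adjusted p up to 0.14) and *Nfatc2* without WT5 (adjusted p up to 0.0559) or in the joint fit or under 75th-percentile scaling of genes with reads.

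Cytotoxic genes changed in both directions, and the cytokine and chemokine genes that passed the test were lower. Of 17 cytotoxic genes, 3 were higher and 3 lower, against 12.6% and 12.5% of all genes. Genes called lower numbered 5 under 75th-percentile scaling of genes with reads or without KO3 and 1 in the joint fit. *Gzma*, a granule protease, had 49663, 229921, 34225 and 35880 in KO and 20577, 17492, 11804 and 15752 in WT cells (log2 fold change 1.93, SE 0.53, adjusted p = 0.0276). All KO libraries were above all WT libraries, and KO2 was far above the rest. *Lamp1*, a membrane protein of lytic granules, had 7997, 6194, 4706 and 6295 in KO and 3899, 3563, 3648 and 3804 in WT cells (log2 fold change 0.73, SE 0.14, adjusted p = 0.00627), and *Rab27a*, which docks the granules, had 21944, 20972, 16658 and 18148 in KO and 14286, 13414, 13395 and 11711 in WT cells (log2 fold change 0.55, SE 0.10, adjusted p = 0.0059). Lower were *Cst7*, a cystatin that limits cathepsins (-1.08), *Ctsw*, cathepsin W, with 14299.9, 11654, 13243 and 11322 in KO and 18059, 17829, 18291 and 20209 in WT cells (log2 fold change -0.56, SE 0.09, adjusted p = 0.00329), and *Nkg7* (-0.35), a granule protein. *Gzmb* had 102720, 270098, 199627 and 139916 in KO and 123834, 153597, 100264 and 107998 in WT cells (log2 fold change 0.48, adjusted p = 0.222) and perforin, *Prf1*, 12558, 25631, 29935 and 20818 in KO and 28092, 23163, 19708 and 21655 in WT cells (-0.12, adjusted p = 0.741), with overlapping groups. *Gzmb* was called higher without KO1 (adjusted p down to 0.0441). Of 13 cytokine genes, 0 were higher and 3 lower (median -0.51). This median was -0.05 without KO2 and -0.19 by edgeR. By library, the median difference from the WT mean was -0.315 in KO1, -1.94 in KO2, 0.109 in KO3 and 0.013 in KO4. *Ifng* (chromosome 10, bases 118441046 to 118445894, plus strand), which encodes interferon gamma, had 2014, 2523, 5370.2 and 3927 in KO and 10544, 10611, 11937 and 11556 in WT cells (log2 fold change -1.79, SE 0.26, adjusted p = 0.00256). *Csf1*, the macrophage growth factor, had 569, 213, 1753 and 1079 in KO and 3765, 3366, 3049.9 and 3023 in WT cells (log2 fold change -2.25, SE 0.53, adjusted p = 0.015), and *Tnf* had 139, 114, 339.8 and 407 in KO and 486, 488, 537 and 546 in WT cells (log2 fold change -1.24, SE 0.38, adjusted p = 0.0405). No KO library reached the WT range. Of 11 chemokine genes, 0 were higher and 4 lower (median -0.76). Those called lower were 2 without the variance trend, by edgeR or without KO2 or any 1 of the WT libraries and 1 in the joint fit. *Ccl3*, an inflammatory chemokine, had 941, 1599.6, 8659.8 and 3744 in KO and 11606, 10709.5, 12877 and 9722 in WT cells (log2 fold change -2.08, SE 0.56, adjusted p = 0.0257), and its relative *Ccl4* 929, 1219.8, 7132 and 2828 in KO and 7644, 7321, 8474 and 6988 in WT cells (log2 fold change -1.79, SE 0.53, adjusted p = 0.0354). KO1 and KO2 were lowest and KO3 nearest to WT. *Cxcl9*, induced by interferon gamma and made mainly by myeloid cells, had 19.3, 28.8, 129 and 14.2 in KO and 289, 212, 175 and 236 in WT cells (log2 fold change -2.77, SE 0.59, adjusted p = 0.0104). *Ccl5* had 66968, 52983, 30674 and 23741 in KO and 38947, 36123, 38693 and 42622 in WT cells (log2 fold change 0.04, adjusted p = 0.933), with KO1 and KO2 above and KO3 and KO4 below the WT libraries. Significance was not kept by *Gzma* without any 1 of the WT libraries (adjusted p up to 0.0791) or without the variance trend or in the joint fit and *Cst7* in the joint fit (adjusted p up to 0.0514). Alternatives ended the call of *Nkg7* without any 1 of the WT libraries (adjusted p up to 0.0794) or without the variance trend or in the joint fit and *Tnf* without KO1, KO2 or any 1 of the WT libraries (adjusted p up to 0.0983) or in 3 of the other alternatives. Less firm were the calls of *Ccl3* without KO2 or any 1 of the WT libraries (adjusted p up to 0.0698) or in 3 of the other alternatives and *Ccl4* without KO1, KO2, KO4 or any 1 of the WT libraries (adjusted p up to 0.0873) or in 4 of the other alternatives.

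**Figure D4:**
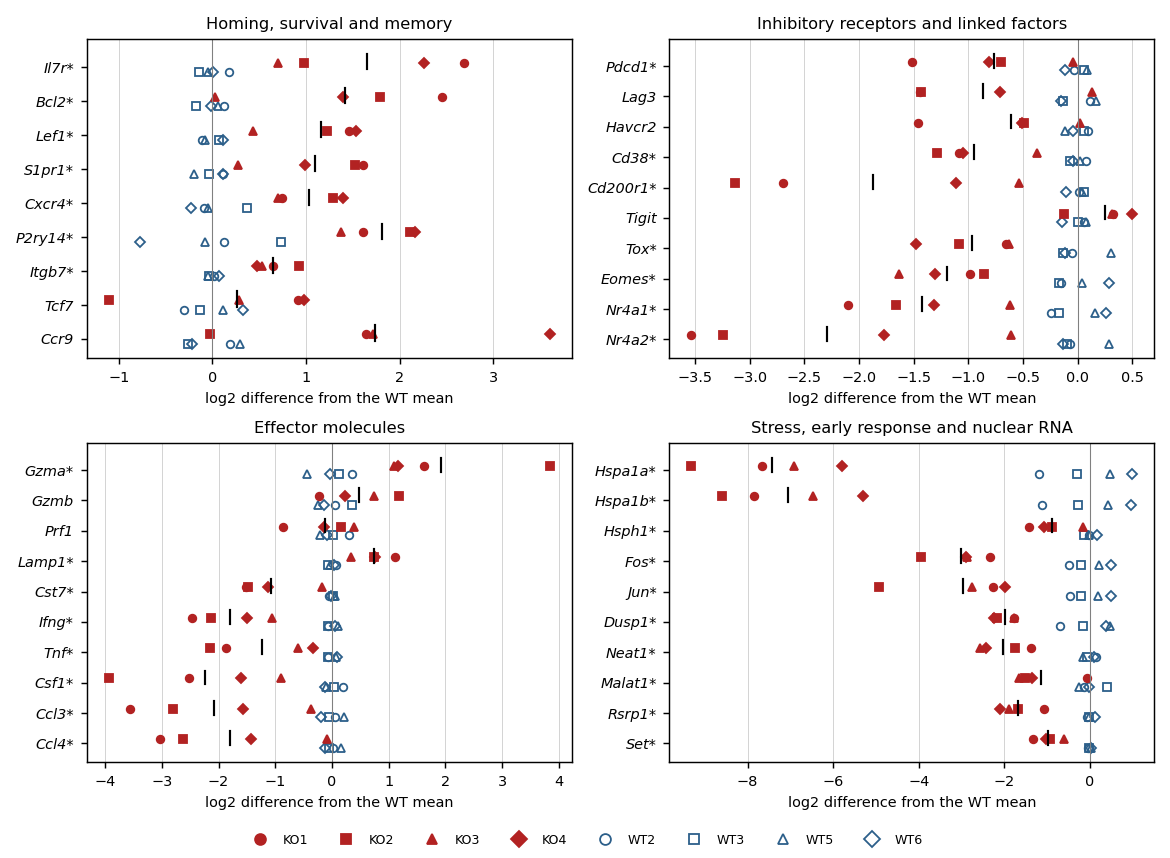
Log2 difference of each library from the WT mean, on the log2(normalized count + 1) scale, for genes of homing and memory, inhibition and exhaustion, effector function and stress, with 1 point per library, a black tick at the KO mean and an asterisk where the adjusted p was at most 0.05. The 4 KO libraries spread more than the 4 WT libraries for many genes, as for *Il7r* at 2701 to 10669 against 1504 to 1879.

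Genes best known from natural killer (NK) cells were no more often called than all genes, of which 12.6% were higher and 12.5% lower. Of 19 NK receptor and adaptor genes, 2 were higher and 1 lower. *Klrb1c*, which encodes NK1.1, had 1354, 741, 672 and 3066 in KO and 268, 312, 70.1 and 179 in WT cells (log2 fold change 2.73, SE 0.56, adjusted p = 0.00898), and *Fcer1g*, a signalling adaptor, had 688, 1816, 1575 and 623 in KO and 461, 337, 227 and 366 in WT cells (log2 fold change 1.64, SE 0.37, adjusted p = 0.0128). *Klre1*, a lectin-like receptor, had 162, 227, 112 and 56.8 in KO and 361, 439, 359 and 337 in WT cells (log2 fold change -1.58, SE 0.37, adjusted p = 0.0149). The defining NK marker *Ncr1* was below the minimum mean for the test, and the adaptor *Tyrobp* had 188, 208, 116 and 90.0 in KO and 154, 99.8, 111 and 181 in WT cells (log2 fold change 0.10, adjusted p = 0.843). The membrane proteins of the *Ifitm* cluster, which block virus entry and share sequence, were mixed. *Ifitm3* had 1374, 4181, 1465 and 1781 in KO and 700.5, 392, 329 and 335 in WT cells (log2 fold change 2.24, SE 0.37, adjusted p = 0.00384) and *Ifitm2* 625, 1887, 846 and 1018 in KO and 519.9, 385, 341 and 505 in WT cells (log2 fold change 1.22, SE 0.30, adjusted p = 0.019), both with KO2 the highest library. *Ifitm1* had 2879, 13148, 4169 and 1934 in KO and 2224, 1423, 1634 and 1909 in WT cells (log2 fold change 1.24, adjusted p = 0.0906). *Ifitm1* was called higher by edgeR, by DESeq2 or without KO4 (adjusted p down to 0.0298). The ion channel-like pair *Tmem176a* and *Tmem176b*, whose annotated spans overlap on opposite strands beside the *Gimap* genes of lymphocyte survival on chromosome 6, rose together. *Tmem176a* had 494, 215, 339.8 and 508 in KO and 66.3, 77.7, 59.3 and 85.3 in WT cells (log2 fold change 2.35, SE 0.29, adjusted p = 0.00147), and *Tmem176b* had 562, 219, 301 and 871 in KO and 96.8, 93.1, 48.5 and 59.3 in WT cells (log2 fold change 2.55, SE 0.43, adjusted p = 0.00423). Of their 8 *Gimap* neighbours, *Gimap9* (0.42), *Gimap1* (0.31) and *Gimap6* (0.36) were higher and *Gimap8* lower (-0.51). Of all 10 genes, the *Tmem176* pair included, 5 were higher and 1 lower. Under quantile normalization or under 75th-percentile scaling of genes with reads, 3 were higher and 3 lower. The 3 higher were the *Tmem176* pair and *Gimap9*. No longer past the threshold were *Klre1* in the joint fit (adjusted p up to 0.0617) and *Ifitm2* without WT3 or WT5 (adjusted p up to 0.0593). The call was lost for *Gimap1* under quantile normalization or under 75th-percentile scaling of genes with reads (adjusted p up to 0.0749) and *Gimap6* without KO4 or any 1 of the WT libraries (adjusted p up to 0.0897) or in 4 of the other alternatives.

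Interferon-stimulated genes that passed the test over all 8 libraries were lower. Of 35 tested, 0 were higher and 9 lower (median -0.13). Genes called higher numbered 5 without KO3 and 2 by DESeq2. *Mx1*, an antiviral GTPase, had 1207, 772, 533 and 646 in KO and 1712, 1835, 1777 and 1732 in WT cells (log2 fold change -1.23, SE 0.21, adjusted p = 0.00483). *Irf1*, the transcription factor that carries the interferon gamma response, had 10736, 11036, 11742 and 10646 in KO and 17204, 14786, 15186 and 14999 in WT cells (log2 fold change -0.49, SE 0.07, adjusted p = 0.00238), and its partner in the type I response *Stat2* had 2793, 2129.8, 2277 and 2119.6 in KO and 3804, 3504, 3595 and 3521 in WT cells (log2 fold change -0.64, SE 0.10, adjusted p = 0.00293). The guanylate-binding proteins *Gbp4* (-0.79) and *Gbp5* (-0.63) were lower too. *Ifit3* had 2971, 1334, 334 and 748 in KO and 435, 446, 482 and 340.2 in WT cells (log2 fold change 1.24, adjusted p = 0.119), KO1 being far above the other libraries. *Ifit3* was called higher by edgeR, by DESeq2 or without KO3 (adjusted p down to 0.0104). Of 19 genes of MHC class I and antigen processing, 0 were higher and 3 lower, against 12.6% and 12.5% of all genes. Those called lower were 7 under quantile normalization, 6 under 75th-percentile scaling of genes with reads, 5 without KO1 or KO3 and 1 without WT5 or WT6. *Nlrc5*, the transactivator of the class I genes, had 17249, 11906, 11993 and 11975 in KO and 22785, 22131, 20393 and 21526 in WT cells (log2 fold change -0.73, SE 0.12, adjusted p = 0.00394), while *B2m*, the light chain, had 72243, 69340.5, 76535 and 68217 in KO and 77408, 69989, 74431 and 74717 in WT cells (log2 fold change -0.05, adjusted p = 0.637). *B2m* was called lower under quantile normalization (adjusted p down to 0.0181). Donor and recipient class I alleles were not told apart in the deposited counts.

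Proliferation genes separated the KO libraries from one another rather than the genotypes. Over all genes, 12.6% were higher and 12.5% lower, the shares beside which each list count of this paragraph stands. Of 26 mitosis genes, 1 was higher and 0 were lower (median -0.34), and of 27 DNA replication genes 0 were higher and 1 lower (median -0.40). Without KO1, 3 mitosis genes were higher and 3 lower, and without KO2 3 DNA replication genes were lower. The median log2 difference of the mitosis genes from the WT mean was -1.36 in KO1, 0.15 in KO2, -0.06 in KO3 and -0.29 in KO4. *Mki67*, the marker of cycling cells, had 20095, 52393, 46375 and 42031 in KO and 40650.4, 53272, 39952 and 44198 in WT cells (log2 fold change -0.22, adjusted p = 0.552), KO1 being the lowest. Most of the glucocorticoid receptor and target genes that passed the test were higher. Of 13 genes, 7 were higher and 2 lower (median 0.84). The largest change of this list was a fall, that of *Dusp1* given above (log2 fold change -1.99). The number higher was 4 in the joint fit or without WT6. *Fkbp5*, a chaperone that feeds back on the receptor, had 21264, 27022, 23104 and 26631 in KO and 10197, 11102, 10102 and 9411 in WT cells (log2 fold change 1.26, SE 0.09, adjusted p = 0.000172). *Ddit4*, an inhibitor of mTORC1, had 16381, 10563, 12966 and 16789 in KO and 6327, 8139.8, 6693 and 5841 in WT cells (log2 fold change 1.06, SE 0.16, adjusted p = 0.00284), and *Txnip*, which limits glucose uptake, had 79765, 15669, 10827 and 22323 in KO and 8166, 7567, 7273 and 7529 in WT cells (log2 fold change 1.62, SE 0.50, adjusted p = 0.0411). KO1 had the highest *Txnip* count by far. Of 24 glycolysis and hypoxia genes 3 were higher and 0 lower, with *Pdk1*, which holds pyruvate back from the mitochondria, at 3245, 1679, 1889 and 2558 in KO and 1193, 1411, 1143 and 1131 in WT cells (log2 fold change 0.90, SE 0.19, adjusted p = 0.0102). The count of higher genes came to 1 under 75th-percentile scaling of genes with reads or without WT2, WT3 or WT6. Genes called lower numbered 6 without KO3. Of 24 genes of Myc and ribosome biogenesis, 4 were higher and 5 lower, led by *Nop56* (-0.66). These counts moved from 0 to 4 higher and 1 to 9 lower over the alternatives, with the most lower (9) without KO3. Of 19 genes of the ATF4 response, 0 were higher and 3 lower, *Atf4* itself having 4882, 4805, 4851 and 4214 in KO and 6208, 6827, 7415 and 7376 in WT cells (log2 fold change -0.57, SE 0.08, adjusted p = 0.00242) and the glutamine carrier *Slc1a5* 9006, 6913, 9688 and 9737 in KO and 14316, 14196, 15654 and 15545 in WT cells (log2 fold change -0.77, SE 0.11, adjusted p = 0.00242). Among 19 BCL2 family and death genes 5 were higher and 2 lower, among 25 sterol genes 2 and 1, and among 22 Polycomb and H3K9 methylation genes 0 and 3. Over the alternatives the BCL2 family counts ran from 0 to 8 higher and 0 to 5 lower, the sterol counts from 0 to 3 higher and 0 to 2 lower and the Polycomb counts from 0 to 1 higher and 0 to 7 lower. Without KO3 they were 8 higher and 5 lower, 1 and 2, and 0 and 6. Of 10 imprinted genes tested, 1 was higher, *Igf2r* at 19843, 29798, 21953 and 18443 in KO and 17509.7, 16503, 14563 and 16547 in WT cells (log2 fold change 0.45, SE 0.14, adjusted p = 0.0425). Lost calls were those of *Txnip* without KO4 or any 1 of the WT libraries (adjusted p up to 0.0938) or in 3 of the other alternatives and *Igf2r* without KO3 or any 1 of the WT libraries (adjusted p up to 0.117) or in 4 of the other alternatives.

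KO libraries varied more than WT libraries. Among 6524 genes whose normalized counts averaged 1000 or more, the SD of the log2 values was larger in KO than in WT cells for 5981 (91.7%), with medians of 0.178 and 0.0665. KO1 was lowest in proliferation genes, KO2 lowest in the chemokine ligands (median -2.64 from the WT mean) and KO3 nearest to WT in them (-0.18), the library that also held the most neutrophil and acinar transcripts. Genes next to each other on a chromosome were called in the same direction in 16 runs of at least 4 tested genes, 6 higher and 10 lower. With 12.6% of all genes higher and 12.5% lower, some runs can arise by chance, and how many was not tested. Runs of paralogs included *Naip2* (-1.05), *Naip5* (-2.72), *Naip6* (-2.25) and *Naip1* (-1.82), sensors of bacterial proteins on chromosome 13, and the guanylate-binding *Gbp10* (-0.74), *Gbp6* (-0.61) and *Gbp11* (-0.69) next to *Gbp4* on chromosome 5, and such copies can share reads. Significance was not kept by *Naip6* in the joint fit (adjusted p up to 0.0795) and *Naip1* in the joint fit (adjusted p up to 0.161).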

How the data were processed

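RNA was measured in sorted splenic donor T cells on day 10 after transplantation. Per the study's methods, strand-specific poly(A) libraries were aligned to mm10 with STAR (2.7.2b in the submitters' processing notes), reads were counted per UCSC gene with strand taken into account, and normalized by DESeq2. The deposited values are this normalized signal, and whole reads could be recovered for 100.0% of values, to a relative tolerance of 1e-06. The table held 17101 genes in 20 libraries, 4 of these genes being on the X chromosome.

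The 4 KO and 4 WT CD8+ libraries were compared with limma 3.58.1 in R 4.3.3 on log2(normalized count + 1), so that fold changes of low genes are understated, with a mean-variance trend, 2-sided, adjusted by Benjamini-Hochberg over the 12383 genes with a mean of at least 10, at a threshold of 0.05. The test was repeated with 10 as the pseudocount, without a filter, with a minimum mean of 50, with quantile and 75th-percentile scaling, without the trend, with edgeR 4.0.16 and DESeq2 1.42.0 on recovered reads, in a joint fit of all libraries, with a replicate block and without each library in turn. The scaling to genes with reads was added after the data were seen. Scripts were tested on simulated data. Replicates of a genotype differed beyond sampling noise (chi-square per degree of freedom of at least 11.03).

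The members and gene lists were chosen with earlier results of these data known, so that lists are described by counts and medians only. Named genes were *Dnmt3a*, those with the 15 largest rises and falls and the 10 of highest mean in each direction among non-overlapping called genes with a mean of at least 50, and list members, those with the largest change first. Genes of neighbouring runs and list members named for their library pattern were chosen after their values were seen. Places and promoters came from RefSeq on GRCm38.p6, which matched 17029 of 17101 genes. Some genes are not reported here. Promoter windows were found for 9789 tested genes.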

Additional observations from a re-analysis of the deposited data

Results flagged for a closer look

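In 22 of 352 groups of 4 libraries (1 gene in 1 genotype, over the genes named above), the gap between 1 library and the nearest of the other 3 took a larger share of the group's range than Dixon's 95% critical value allows. Chance marks about 1 in 20 such groups. All values are normalized counts, with the range of the other libraries of the same genotype in parentheses.

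Among KO libraries, KO1 stood above the rest for *4632428N05Rik* at 16362 (others 12399 to 12941), *Ccnl2* at 4390 (others 2471 to 2770), *Clk1* at 4576 (others 2510 to 2777), *Malat1* at 22537 (others 7503 to 9258), *Nlrc5* at 17249 (others 11906 to 11993), *Txnip* at 79765 (others 10827 to 22323). KO2 stood above the rest for *Gzma* at 229921 (others 34225 to 49663), *Ifitm3* at 4181 (others 1374 to 1781). KO2 stood below the rest for *Cd6* at 14681 (others 21657 to 22762), *Tnfaip3* at 2755 (others 4626 to 4720). KO3 stood above the rest for *Cxcl9* at 129 (others 14.2 to 28.8), *Npas4* at 41.5 (others 0 to 3.09). KO3 stood below the rest for *Cd79a* at 12.3 (others 34.3 to 35). KO4 stood below the rest for *Atf4* at 4214 (others 4805 to 4882), *Cd8b1* at 35472 (others 44901 to 46606).

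Among WT libraries, WT2 stood above the rest for *Irf1* at 17204 (others 14786 to 15186). WT2 stood below the rest for *Ccnl2* at 6433 (others 6806 to 6839), *Naip6* at 41.9 (others 60.2 to 62.4), *Nkg7* at 44610 (others 46786 to 47076). WT5 stood above the rest for *Cd8a* at 68732 (others 62768 to 63084), *Nr4a2* at 5661 (others 4238 to 4432). WT5 stood below the rest for *Miat* at 718 (others 991 to 1037).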

How the results depend on the processing

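All alternatives kept the direction of the called genes named above except that quantile normalization moved *Eef1a1* to a log2 fold change of 0.00. That scaling gives all libraries the same set of values, so that a gene of equal rank in each gets 0.00 by construction. Of the 155 called named genes, 107 stayed called in all 19 alternatives, 120 in the 8 fits that left out 1 library and 120 in the 11 others.

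The number of called genes was 3228 with a pseudocount of 10, 2927 with no filter, 3047 with a minimum mean of 50, 2935 under quantile normalization, 3035 under common 75th-percentile scaling, 2551 without the variance trend, 3055 by edgeR and 3833 by DESeq2. The joint fit over all 20 libraries called 2017, with 956 higher and 1061 lower, and 75th-percentile scaling of genes with reads 689 higher. Leaving out 1 library gave 1633 to 4092 called genes, 822 to 1986 higher and 811 to 2106 lower. The cause of these differences was not tested.

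Replicate numbers were shared by 2 KO and WT pairs, whose residuals correlated at 0.153 and 0.036 against -0.164 to 0.226 for other pairs. With only 2 such pairs, these values cannot tell whether they share more than a number. With the replicate number as a block 3172 genes were called, 1592 higher and 1580 lower.

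Among genes not called, *Ccl5* changed sign, to -0.15 under quantile normalization and -0.074 under 75th-percentile scaling of genes with reads, and ran from -0.21 to 0.29 without 1 library, below 0 without KO1 or KO2. *Hspa8* moved to -0.23 and -0.085 under the same scalings and ran from -0.013 to 0.097, below 0 without KO3 or KO4. *Tyrobp* moved to -0.012 under 75th-percentile scaling of genes with reads and ran from -0.082 to 0.32, below 0 without KO1, KO2 or WT3. *Mki67* ran from -0.38 to 0.08 and *Prf1* from -0.28 to 0.13, both above 0 only without KO1.

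Groups of 4 limit these results, since an exact permutation test of 1 gene cannot go below p = 0.0286, and the part of other cell types in the changes was not tested. Without KO3, the KO library with the most neutrophil and acinar transcripts, 4092 genes were called.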
